A study of Bombus terrestris with 8 samples.

Results

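The mir-281 hairpin of the buff-tailed bumblebee Bombus terrestris carries a listed mature miRNA on each arm. The members were chosen by name in the deposited table of sequenced miRNAs, and 2 of its 65 entries belong to this hairpin: the 5p arm is listed as MC2238 and the 3p arm as bte-mir-281. Small RNA was sequenced from late larvae (instar 4; 4 libraries) and early larvae (instars 1 and 2; 4 libraries). All larvae were diploid females destined to become workers, none carried a treatment, and whole bodies were pooled by colony and stage, so each library averages over tissues and animals. The larvae came from 4 colonies with 2 libraries each. Libraries therefore share colonies in pairs, but the labels do not say which libraries belong together.

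A miRNA is cut from a folded precursor as a duplex of the 5p and the 3p arm, and usually 1 strand of the duplex is kept in the silencing complex, where the seed (bases 2 to 8) pairs with target transcripts. mir-281 is conserved across insects. In the silkworm Bombyx mori it acts on the B isoform of the ecdysone receptor, the nuclear receptor for the steroid that times moults and metamorphosis, in the Malpighian tubules, the excretory organs. In Aedes mosquitoes it is known from the midgut. None of these roles was measured in bumblebee larvae here.

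Both mature sequences and the precursor are shown because every count below is a count of reads given to one of them. They are written as DNA, from 5′ to 3′, with the seed of each mature sequence in capitals, and with both mature sequences in capitals in the precursor.
MC2238 (5p): aAGAGAGCtatccatcgacagt
bte-mir-281 (3p): tGTCATGGagttgctctctttgt
mir-281 precursor: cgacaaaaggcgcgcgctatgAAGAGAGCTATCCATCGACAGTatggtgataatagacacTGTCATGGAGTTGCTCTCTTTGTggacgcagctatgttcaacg

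On assembly Bter_1.0 the longer listed precursor, that of bte-mir-281, spans 103 nt of scaffold Group1.1 from 646794 to 646896 on the plus strand. The MC2238 precursor lies inside it (646807 to 646882, 76 nt). The 5p mature sequence occupies 646815 to 646836 (22 nt) and the 3p mature sequence 646854 to 646876 (23 nt), with 17 bases between them. No gene annotation of this assembly was used here, so whether the hairpin is intronic or intergenic was not examined. The only other listed hairpin on the scaffold, bte-mir-932, lies 336 kb away on the minus strand (310905 to 311001). The 2 entries came from different routes. MC2238 was predicted by miRCat from the reads, whereas bte-mir-281, the entry with a miRBase identifier, is marked in the table as conserved. The methods of the study also set a minimum of reads and a limit on similarity for part of the conserved entries. bte-mir-281 had 93 reads in all, which is below that minimum. The table does not show whether these limits applied to it.

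The arms have different seeds, AGAGAGC on the 5p arm and GTCATGG on the 3p arm. Neither seed occurred in any other listed mature sequence, so the hairpin shares a seed family with no other miRNA of the table. MC2238 starts with A and bte-mir-281 with T (U in the RNA). Folded with RNAfold, the longer precursor had a minimum free energy of −43.5 kcal/mol and the shorter −37.1 kcal/mol. In both folds 17 base pairs joined the mature sequences and 3 bases of each were unpaired. All 7 seed bases of each arm were paired within the stem. The 3p sequence ran 3 bases, and the 5p sequence 2 bases, past the end of the other strand at its own 3′ end, the staggered duplex ends that precursor processing leaves.

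The 5p arm was the main product in both stages. MC2238 had 559, 424, 446 and 194 reads in late replicates 1 to 4, against 1470, 1504, 560 and 506 reads in early replicates 1 to 4. These counts depend on depth, because the reads on all listed miRNAs numbered 45649 to 257161 in late libraries and 204223 to 502540 in early libraries. After normalization by TMM, the scaling of edgeR, the level of MC2238 was 2482, 3459, 4082 and 3810 counts per 1000000 reads (CPM) in late replicates 1 to 4, against 2518, 2614, 2456 and 1982 CPM in early replicates 1 to 4. Late replicates 2, 3 and 4 lay above every early library. Late replicate 1 lay among the early libraries, so the stages overlapped.

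The 3p arm was rare. bte-mir-281 had 17, 16, 5 and 0 reads in late replicates 1 to 4, against 22, 15, 11 and 7 reads in early replicates 1 to 4. Its level was 75.5, 130.5, 45.8 and 0 CPM in late replicates 1 to 4, against 37.7, 26.1, 48.2 and 27.4 CPM in early replicates 1 to 4. Late replicates 1 and 2 lay above every early library, late replicate 3 lay within their range, and late replicate 4 had no read. The 0 reads of late replicate 4, the shallowest of the libraries, allow up to 58.9 CPM (3 counts), more than any early library had. Over the other 7 libraries there were 93 reads of the 3p arm for 5469 of the 5p arm, and at that ratio the 194 reads of MC2238 in late replicate 4 would go with 3.30 reads of bte-mir-281. In the libraries with a 3p read, MC2238 had 32.9, 26.5 and 89.2 reads per read of bte-mir-281 in late replicates 1 to 3, against 66.8, 100.3, 50.9 and 72.3 in early replicates 1 to 4. The lowest of these ratios were thus in late replicates 1 and 2.

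**Figure D1:**
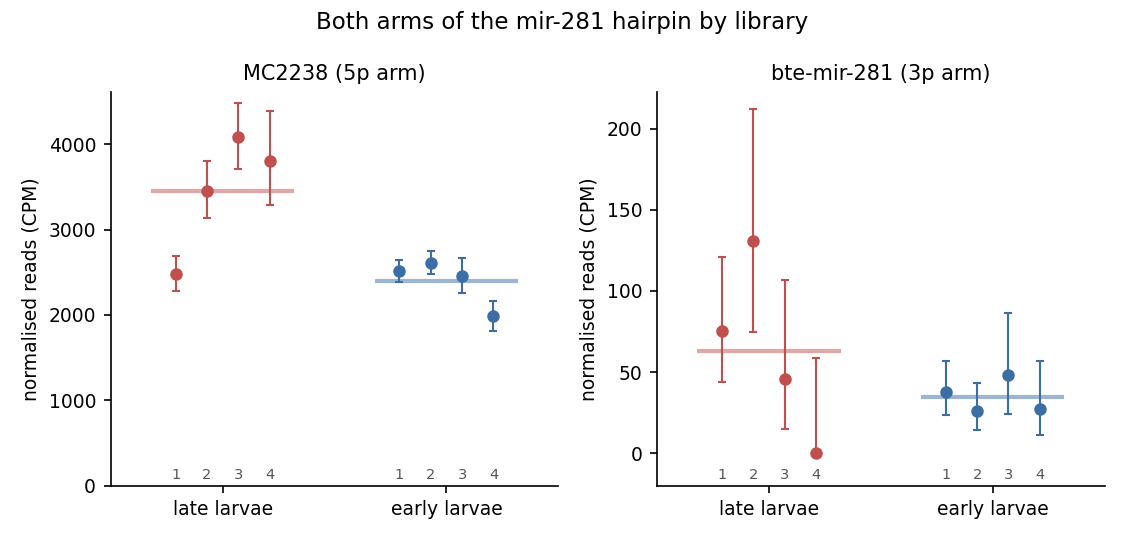
Normalised reads (CPM, linear axes) of MC2238 and bte-mir-281 in each library, late larvae on the left and early larvae on the right. Points are libraries with their replicate number, bars are exact 95% Poisson intervals that cover counting error only (for 0 reads, up to the limit of 3 counts), and horizontal lines are stage means. Late replicates 2, 3 and 4 lie above all early ones for MC2238, and late replicate 4 has no read of bte-mir-281.

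The precision of the arms differed. Between libraries the coefficient of variation of MC2238 was 20.2% in late larvae and 11.7% in early larvae, where counting alone gives 5.69% and 3.46%, so the libraries of a stage differed by more than counting error. For bte-mir-281 it was 86.9% in late larvae, where counting gives 37.2%, and 29.6% in early larvae, where counting also gives 29.6%. The early libraries therefore show no spread of the 3p arm beyond that of counting 55 reads.

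The hairpin as a whole, with the reads of both arms summed, followed its 5p arm. It had 2558, 3589, 4128 and 3810 CPM in late replicates 1 to 4, against 2556, 2640, 2504 and 2010 CPM in early replicates 1 to 4. The mean was 3521 ± 679 CPM in late larvae and 2427 ± 284 CPM in early larvae (SD, n = 4 each). As a share of the reads on listed miRNAs, without TMM, the hairpin held 0.224%, 0.310%, 0.353% and 0.425% in late replicates 1 to 4, against 0.297%, 0.302%, 0.280% and 0.187% in early replicates 1 to 4. On this scale late replicate 1 was below 3 of the 4 early libraries, and the stages overlapped here too.

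By its mean level the hairpin was 17th of 60 hairpins in late larvae and 18th of 60 in early larvae, where entries with overlapping precursors were joined. Its rank within single libraries ran from 14 to 19 in late larvae and from 18 to 21 in early larvae. The hairpins above it carried 97.3% of the normalised reads in late larvae and 97.6% in early larvae, so the hairpin was well ranked in a list in which few miRNAs take nearly all reads. It stood 5.53-fold above the median hairpin in late larvae (median 636 CPM) and 12.6-fold above it in early larvae (median 193 CPM). The arms stood far apart in the order of 63 distinct mature sequences, with MC2238 17th and bte-mir-281 46th in late larvae, and MC2238 18th and bte-mir-281 52nd in early larvae.

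The order near the hairpin was not sharp. In late larvae bte-mir-71 was next above it with 3815 ± 834 CPM and bte-mir-279a next below it with 2942 ± 1466 CPM (SD, n = 4 each), and the libraries of both overlapped those of the hairpin. In early larvae bte-mir-277 was next below with 2267 ± 198 CPM (SD, n = 4) and overlapped it. The next above, bte-mir-3785, had 3121 ± 512 CPM (SD, n = 4) and did not overlap it, but its lowest early library (2648 CPM) was within the counting interval of the highest early library of the hairpin (2640 CPM, 95% Poisson interval 2509 to 2776). In all, the range of the hairpin was met by 12 other hairpins in late larvae and 7 in early larvae. Its own spread was below the median in both stages, clearly so only in late larvae. Among hairpins with a mean of at least 100 CPM in the stage, its coefficient of variation was the fifth lowest of 42 in late larvae (19.3%, median 39.9%) and 14th lowest of 38 in early larvae (11.7%, median 14.9%). For the hairpin, counting alone gives 5.63% in late larvae and 3.43% in early larvae. Counting gives more for hairpins with fewer reads, and the medians include those. This order therefore does not show that the level of the hairpin was unusually steady.

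**Figure D2:**
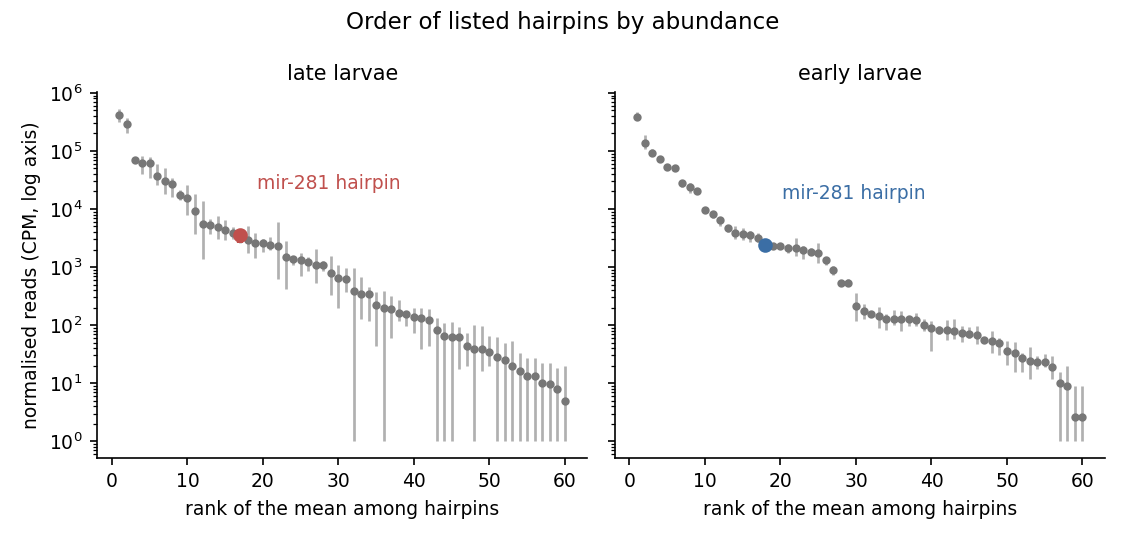
Mean normalised reads of the 60 hairpins (CPM, log axis) by rank in late larvae (left) and early larvae (right), with vertical lines from the lowest to the highest library, drawn from 1 CPM where a library had none. The mir-281 hairpin, coloured, is 17th in late larvae and 18th in early larvae.

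To ask whether the hairpin changed between stages, edgeR's quasi-likelihood test was fitted across all sequences. With an adjusted p under 0.05, 20 of the 62 sequences tested were called (32.3%), of which 12 rose in late larvae relative to early larvae (19.4%) and 8 fell. The unadjusted p was under 0.05 for 27. Of the members, 0 of 2 passed. The split into higher and lower calls was not stable. It was 11 higher and 14 lower when libraries were scaled by the listed total, 12 higher and 13 lower under DESeq2, 9 higher and 20 lower without late replicate 1, and 5 higher and 11 lower without early replicate 2. Stages did not overlap for 20 of the 62 sequences (32.3%) and for 0 of the 2 members.

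For MC2238 the log2 fold change of late over early larvae was 0.53 (standard error 0.27), which did not pass (adjusted p = 0.139, edgeR). The fold change was 1.44 with a 95% interval of 0.97 to 2.14, so neither an unchanged level nor a doubling lay outside it. The log2 fold change of bte-mir-281 was 1.01 (standard error 0.61, adjusted p = 0.206, edgeR), a fold change of 2.01 with an interval of 0.82 to 4.98. The hairpin gave 0.53 (standard error 0.27, adjusted p = 0.125, edgeR, 59 hairpins tested, 33.9% of them with an adjusted p under 0.05), a fold change of 1.45 with an interval of 0.98 to 2.14. An exact permutation test of the hairpin alone, which borrows no spread from other miRNAs, gave a difference in mean log2 CPM of 0.52 (two-sided p = 0.0571, n = 4 late and 4 early libraries, where the smallest possible p is 0.0286). For MC2238 the same exact permutation test gave 0.51 (two-sided p = 0.0857). Among all 62 sequences, 21 had a higher log2 fold change than MC2238 and 12 had a higher one than bte-mir-281. The median of all was 0.18, which leaves MC2238 0.35 and bte-mir-281 0.83 above it.

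**Figure D3:**
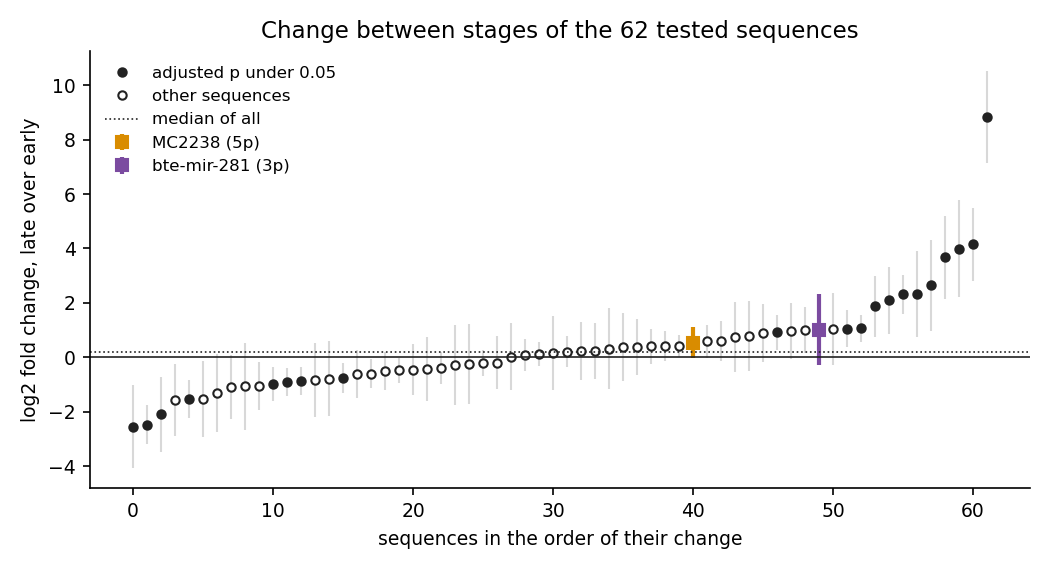
Log2 fold change of late over early larvae for the 62 tested sequences in the order of their change, with 95% intervals from edgeR. Filled points had an adjusted p under 0.05; the intervals of MC2238 (0.53) and bte-mir-281 (1.01), drawn as squares, include 0.

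Whether the 3p arm passed depended on late replicate 4, the library with 0 of its reads and the lowest depth. Without it bte-mir-281 was higher in late larvae and passed, with a log2 fold change of 1.28 (standard error 0.44, adjusted p = 0.0440, edgeR). It was the only alternative of 14 in which a member passed, and over all of them the adjusted p of bte-mir-281 ran up to 0.679. The size of the change rested on other libraries. MC2238 had 0.21 without early replicate 2 and 0.26 without late replicate 1, and bte-mir-281 had 0.37 without early replicate 2, 0.34 without late replicate 1 and 0.45 without late replicate 2. Since the median of all sequences moved in these fits as well, the changes relative to that median are given too. That of MC2238, 0.35 with all libraries, ran from 0.16 without late replicate 4 and 0.26 without early replicate 4 to 0.77 without late replicate 1. That of bte-mir-281, 0.83 with all libraries, fell to 0.45 without late replicate 2.

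**Figure D4:**
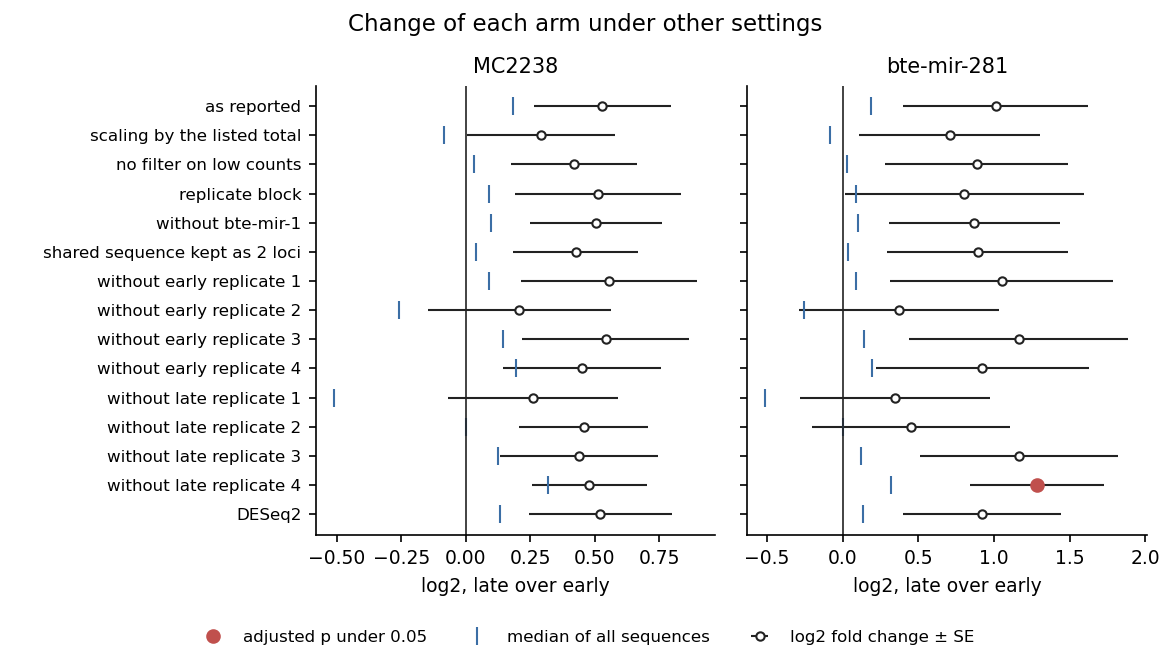
Log2 fold change (late over early, ± standard error) of MC2238 and bte-mir-281 under each setting, with the median of all tested sequences in that fit as a blue tick. All values are above 0, and only bte-mir-281 without late replicate 4 has an adjusted p under 0.05 (filled).

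Other miRNAs linked to ecdysone or to the timing of moults in other insects were compared with the hairpin from a list of 10. Of these, 5 were among the entries and 4 could be tested, since bte-mir-275 has blank cells in most libraries. Of the 4 named entries, 1 rose, 1 fell and 2 did not pass, beside 32.3% called among all 62 sequences. Their median log2 fold change was 0.65, against 0.18 for all. let-7, which in Drosophila is switched on with the ecdysone pulses at metamorphosis, rose. bte-let-7 had 4387 ± 1550 CPM in late larvae and 2126 ± 677 CPM in early larvae (SD, n = 4 each; log2 fold change 1.05, adjusted p = 0.0181, edgeR). It no longer passed without late replicate 1 (0.36, edgeR adjusted p = 0.415) or without early replicate 1, 2 or 3 (edgeR adjusted p = 0.0613, 0.288 and 0.0745). bantam, a growth regulator that in Drosophila acts on ecdysone production, fell. bte-bantam had 27451 ± 8196 CPM in late larvae and 49993 ± 1983 CPM in early larvae (SD, n = 4 each; log2 fold change −0.86, adjusted p = 0.0129, edgeR), and the stages did not overlap. bte-mir-125, which shares a transcript with let-7 in Drosophila, had a log2 fold change of 0.89 (adjusted p = 0.184, edgeR). The unnamed entry MC1211, whose precursor overlaps that of bte-mir-125, did rise (log2 fold change 4.00, adjusted p = 0.00235, edgeR). With both entries summed, the mir-125 hairpin rose too, from a mean of 82.3 CPM in early larvae to 344 CPM in late larvae. Its log2 fold change was 2.08 (adjusted p = 0.00754, edgeR). bte-mir-8, which is under ecdysone control in the Drosophila fat body, had 0.42 (adjusted p = 0.0927, edgeR), although its 4 late libraries (61648 to 79670 CPM) all lay above its 4 early ones (47906 to 54541 CPM). Thus MC2238 and bte-mir-281 had positive values, as did let-7, mir-125 and mir-8 but not bantam, and neither MC2238 nor bte-mir-281 passed. A positive value was common, since 35 of all 62 sequences had one. Whether any of these changes differs from that of mir-281 was not tested.

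In bulk samples of whole larvae, a smaller share of a tissue and less RNA per cell cannot be told apart. The miRNAs of the list known from a single tissue did not pass between stages. The muscle miRNAs bte-mir-1 and bte-mir-133 had log2 fold changes of 0.12 and −0.19, and the nervous system miRNA bte-mir-124 had −0.43 (edgeR adjusted p = 0.650, 0.732 and 0.556). bte-mir-1 turned negative in 3 alternatives. No marker of the gut or the Malpighian tubules was examined among the listed miRNAs, so the part of these organs in the level of mir-281 was not tested.

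The profile of the hairpin over the 8 libraries was compared with that of 41 other hairpins of at least 100 CPM on average, by the root mean square difference of log2 CPM after each was centred on its own mean. bte-mir-8 was nearest (0.27), followed by bte-mir-277 and bte-mir-279a (0.35 each), where the median hairpin was at 0.76. The mir-281 hairpin itself varied little, so a profile with no variation would also lie close to it. The hairpins compared include ones with few reads or with large changes between stages, which raises the median distance. A small distance therefore does not by itself show a shared course over the libraries. As in the mir-281 hairpin, the libraries of bte-mir-8 were on average higher in late larvae (69513 ± 7617 CPM) than in early larvae (52121 ± 2912 CPM; SD, n = 4 each). The largest gaps were in late replicate 3, where the hairpin was 0.51 and bte-mir-8 0.04 above its own mean, and in late replicate 1, where the hairpin was 0.18 below and bte-mir-8 0.23 above. bte-mir-277 had 2411 ± 616 CPM in late larvae and 2267 ± 198 CPM in early larvae (SD, n = 4 each; log2 fold change 0.09, adjusted p = 0.774, edgeR, a sign that turned in 6 alternatives). bte-mir-279a had 2942 ± 1466 CPM in late larvae and 1934 ± 409 CPM in early larvae (SD, n = 4 each; log2 fold change 0.60, adjusted p = 0.188, edgeR). Like the hairpin it was low in late replicate 1 and early replicate 4, but it differed in late replicate 4 (1.15 above its mean, against 0.40 for the hairpin) and in late replicate 3 (0.02 below, against 0.51 above for the hairpin). All these values come from the same libraries and the same scaling.

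**Figure D5:**
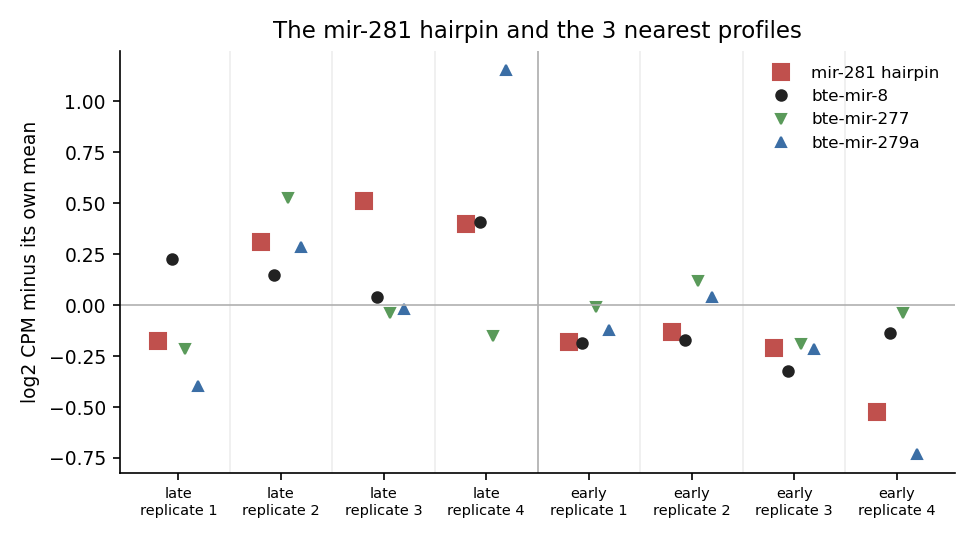
Log2 CPM minus its own mean over the 8 libraries for the mir-281 hairpin and the 3 nearest hairpins, late libraries on the left and early ones on the right. The hairpin is highest in late replicate 3 (0.51) and lowest in early replicate 4 (−0.53).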

How the data were processed

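Small RNA from whole larvae (4 late and 4 early libraries) was ligated to a 3′ adaptor with degenerate bases and sequenced. The authors mapped the combined reads to Bter_1.0, predicted precursors with miRCat and deposited raw counts per mature sequence and library, not normalized. The aligner, the mismatches allowed and the handling of end variants are not given in the sources used here, and could change every count; a read shorter or longer than a listed sequence may or may not be included.

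Columns were matched to libraries by stage initial and number (0 columns of per-sample values unmatched). bte-mir-275, blank in most libraries, was left out, and a mature sequence shared by MC218 and MC64 was counted once (63 sequences, 60 hairpins). Sequences with at least 10 reads in all were tested (62; edgeR 4.0.16, R 4.3.3, TMM, quasi-likelihood test, stage as only term, Benjamini-Hochberg adjustment, biological coefficient of variation 37.4%). Hairpins used the same scaling factors. Each standard error was taken as |log2 fold change| over the square root of F. On 20 simulated data sets with log2 changes of 2, 91.3% of changed sequences were recovered and 7.43% of calls were false; changes as small as those of mir-281 were not simulated. Alternatives were DESeq2 1.42.0, listed totals, no filter, the replicate number as a block, bte-mir-1 left out, both shared loci kept and each library left out; those of the exact test were added later. Precursors were folded with RNAfold 2.7.2, and intervals and tests used Python 3.11.15 and SciPy 1.17.1.

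The members and lists were chosen with earlier results of these data known. Besides the members, the text names the 3 nearest profiles, the neighbours in rank, the ecdysone list (let-7, mir-100, mir-125, mir-14, mir-34, mir-8, bantam, mir-252, mir-965, mir-275), the tissue miRNAs and the nearest hairpin on the scaffold. A count of 3 sets the limit that 0 reads allow. P-values measure the spread between pooled libraries only. Target sites, for which transcripts would be needed, were not analysed here.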

Additional observations from a re-analysis of the deposited data

Results flagged for a closer look

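Neither arm of the mir-281 hairpin, nor their sum, had a library that stood apart from the other 3 of its stage. Among the 30 groups of 4 libraries examined, which include the other named miRNAs, 2 held such a library, where chance flags about 5% of groups. bte-mir-133 had 97.7 CPM in late replicate 1, against 171 to 177 CPM in the other late libraries. These values rest on only 9 to 22 reads per late library, and the flag takes no account of counting error. bte-mir-1 had 464893 CPM in early replicate 4, against 348178 to 360741 CPM in the other early libraries. These are also the libraries in which the mir-281 hairpin was lowest within its stage (2558 and 2010 CPM). Among late libraries bte-mir-1 was highest in late replicate 1 as well (534759 CPM), though it was not flagged there. The part of bte-mir-1 or bte-mir-133 in the low values of the hairpin was not tested.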

How the results depend on the processing

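MC2238 and the hairpin kept a positive change and did not pass in any of 14 alternatives (edgeR or DESeq2 adjusted p 0.105 to 0.679 and 0.0990 to 0.676). Leaving out each library in turn gave log2 fold changes of 0.21 to 0.56 for MC2238, 0.21 to 0.56 for the hairpin and 0.34 to 1.28 for bte-mir-281, where the highest was called. The exact test of the hairpin did not pass in any of 9 alternatives (differences 0.29, with listed totals, to 0.67, exact permutation p = 0.0571 to 0.314). Without 1 library its smallest p is 0.0571, so those fits could not pass. Calls numbered 15 to 29 when a library was left out. The rank in late larvae was 14 to 17 without 1 late library, and 18 throughout in early larvae. The median log2 fold change of all sequences was 0.18 under TMM and −0.09 with listed totals, and bte-mir-1 (−0.12) and bte-mir-277 (−0.16) then turned negative. So did bte-mir-277 with no filter and with both shared loci kept (−0.034 and −0.027), and leaving out libraries gave −0.47 to 0.24 for bte-mir-1 and −0.32 to 0.15 for bte-mir-277. The causes were not tested.

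Libraries share colonies in pairs, but the labels do not tie replicate numbers to colonies, so the numbers were not taken as pairs. Deviations of same-numbered libraries from their stage means correlated at −0.09, 0.02, 0.03 and −0.08 across 62 sequences. Only late replicate 3 correlated best with the library of its own number. With the replicate number as a block, MC2238 had 0.51, bte-mir-281 0.80 and the hairpin 0.52, and 18 sequences were called in place of 20. Low depth limits the 3p arm most, with 93 reads in 8 libraries.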
